A study of Mus musculus with 58 samples.

Results

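The genes described here are 6 members of the Hoxa cluster, Hoxa2, Hoxa3, Hoxa4, Hoxa5, Hoxa7 and Hoxa9, taken by symbol from the 20177 genes counted in the files. They were followed in mouse E14 embryonic stem cells (129/Ola, grown in serum with leukaemia inhibitory factor, LIF) in which both copies of Dpy30 carry a mini auxin-inducible degron (mAID) and the plant F-box protein OsTIR1 is expressed, so that auxin removes the DPY30 protein. In the first experiment these cells were differentiated with 1 µM retinoic acid (RA) without LIF, with DMSO as vehicle or with auxin, and RNA was counted at its 3′ end by Quant-seq. The DMSO groups were taken at 0 h, 8 h and days 1, 2, 4 and 6, and the auxin groups at 8 h and days 1, 2, 4 and 6, with 2 libraries a group. An auxin group of the RA series at 0 h was not analysed here, so both series were set against the DMSO libraries of 0 h. In the second experiment undifferentiated cells of 3 lines were labelled with 4-thiouridine and counted by SLAM-seq, in which thymine-to-cytosine (T>C) conversions mark newly made RNA. Libraries were taken at 0 h and at 2, 8 and 24 h of auxin or dTAG-13, and in the double knockout also at 4 and 48 h, so the 12 libraries of a line are mostly of treated cells. The lines were DPY30–mAID cells, DPY30–mAID cells that also lack Kdm5a and Kdm5b (double knockout, derived from picked clones), and RBBP5–FKBP cells, a clonal line in which dTAG-13 removes RBBP5. All lines are engineered derivatives of 1 parental line, and the tags act on the proteins, so RNA of Dpy30 or Rbbp5 is no check of depletion.

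Hox genes encode homeodomain transcription factors that give cells their position along the head-to-tail axis. They lie in clusters in which the 3′ genes are known to be used earlier and nearer the head than the 5′ genes, and RA, acting through its nuclear receptors, is a classical inducer of the 3′ genes in embryonic stem cells. In undifferentiated cells the clusters carry both Polycomb marks and trimethylated lysine 4 of histone H3 (H3K4me3), the latter written by SET1 and MLL complexes that share the subunits DPY30 and RBBP5 and erased by KDM5 demethylases. Hoxa2 patterns the hindbrain and the second pharyngeal arch, Hoxa3 the thymus and parathyroid, Hoxa4 the neck vertebrae, Hoxa5 the cervicothoracic skeleton and the lung, Hoxa7 the trunk, and Hoxa9 blood progenitors and the posterior skeleton.

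The 6 genes lie on the minus strand of chromosome 6 (GRCm38), with Hoxa2 nearest the 3′ end of the cluster and Hoxa9 nearest its 5′ end. Reads were counted in annotated 3′ untranslated intervals. These were chr6:52162417-52162885 for Hoxa2, chr6:52169062-52169939 for Hoxa3, chr6:52189671-52190341 for Hoxa4 and chr6:52201754-52202580 for Hoxa5. Hoxa7 was read almost wholly in chr6:52214491-52216030, which held 99.4% of its Quant-seq reads, and Hoxa9 in chr6:52223100-52224482. The intervals of Hoxa3, Hoxa4 and Hoxa7 overlap exons of the antisense transcripts Hoxaas2, Gm29430 and Hoxaas3, and whether the counting used strand is not given in the sources used here. Reads that mapped to several places made up 0.569% of the Hoxa5 reads and 0.118% of the Hoxa7 reads, and none of the others.

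Promoter windows of 300 bases, from 250 bases before to 50 after the transcription start, were held by RefSeq (GRCm38.p6) for 5 of the 6 genes. The windows of Hoxa5, Hoxa7 and Hoxa9 are shown because Hoxa5 and Hoxa9 are the members that passed the test between auxin and DMSO and Hoxa7 lies between them on the chromosome. They span chr6:52204538-52204837, chr6:52218524-52218823 and chr6:52227321-52227620, all on the minus strand, and are written 5′ to 3′. Capitals mark a match to a retinoic acid receptor half-site, searched on both strands as AGGTCA, then as AGTTCA, then as GGTTCA and last as GGGTCA, matches that do not overlap in these windows.
Hoxa5: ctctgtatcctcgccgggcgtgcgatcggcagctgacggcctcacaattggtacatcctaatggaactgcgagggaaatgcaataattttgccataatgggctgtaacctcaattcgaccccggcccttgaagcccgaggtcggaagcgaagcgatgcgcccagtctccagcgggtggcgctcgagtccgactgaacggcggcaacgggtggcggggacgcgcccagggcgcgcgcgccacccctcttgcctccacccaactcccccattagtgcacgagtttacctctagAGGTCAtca
Hoxa7: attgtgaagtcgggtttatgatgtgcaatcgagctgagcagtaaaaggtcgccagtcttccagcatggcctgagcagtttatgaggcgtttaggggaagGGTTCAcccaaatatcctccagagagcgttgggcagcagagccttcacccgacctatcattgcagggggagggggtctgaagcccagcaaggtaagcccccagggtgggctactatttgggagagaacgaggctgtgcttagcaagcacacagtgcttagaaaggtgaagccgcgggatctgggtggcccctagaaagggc
Hoxa9: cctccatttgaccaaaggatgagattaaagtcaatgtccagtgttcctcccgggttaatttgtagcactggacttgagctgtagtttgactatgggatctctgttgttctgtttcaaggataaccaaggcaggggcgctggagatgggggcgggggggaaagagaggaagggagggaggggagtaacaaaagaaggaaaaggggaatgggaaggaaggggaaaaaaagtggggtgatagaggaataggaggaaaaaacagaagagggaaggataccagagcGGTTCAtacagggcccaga

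The Hoxa5 window was CpG-rich, with 29 CpG dinucleotides, more than in 87.1% of the 32851 promoters of this length, and a GC content of 61.7%. The Hoxa7 and Hoxa9 windows held 9 and 4 CpG dinucleotides, against a median of 7 over all promoters, with GC contents of 55.7% and 49.7%. Their half-site matches stood at position 41 after the start in Hoxa5 (AGGTCA), 151 bases before it in Hoxa7 and 31 after it in Hoxa9 (both GGTTCA). The windows of Hoxa2 (9 CpG) and Hoxa3 (20 CpG) held no match, and TATAAA was found in none of the 5. A match to any of the 4 half-sites is common, being present in 43.7% of all promoters, so these matches are a description of the letters only.

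The Quant-seq libraries held 1264241 to 2543632 counted reads. The SLAM-seq libraries held 2013350 to 2806821 reads in DPY30–mAID, 5931269 to 7792404 in the double knockout and 1721185 to 2852331 in RBBP5–FKBP. All 14 pluripotency markers had reads at 0 h, with a summed level of 8727 to 8952 CPM (reads scaled to a total of 1000000 counted reads). At day 6 the DMSO pair did not differ in a single count, so it entered as 1 library and that group has values and no test. The SLAM-seq replicates are described as biological in the study. For the Quant-seq replicates the sources used here do not say whether they were separate cultures, so their p-values measure only the spread between these libraries, which may be technical.

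Before RA the 6 genes were at or near the lowest level that these libraries can show. Hoxa2 had 0 reads in both 0 h libraries, which allows up to 1.34 and 1.18 CPM at 3 counts a library. Hoxa3 had 1 and 1 reads, Hoxa4 0 and 4, Hoxa5 1 and 0, Hoxa7 1 and 3, and Hoxa9 1 and 2. No member exceeded 4 reads in a Quant-seq library of 0 h.

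**Figure D1:**
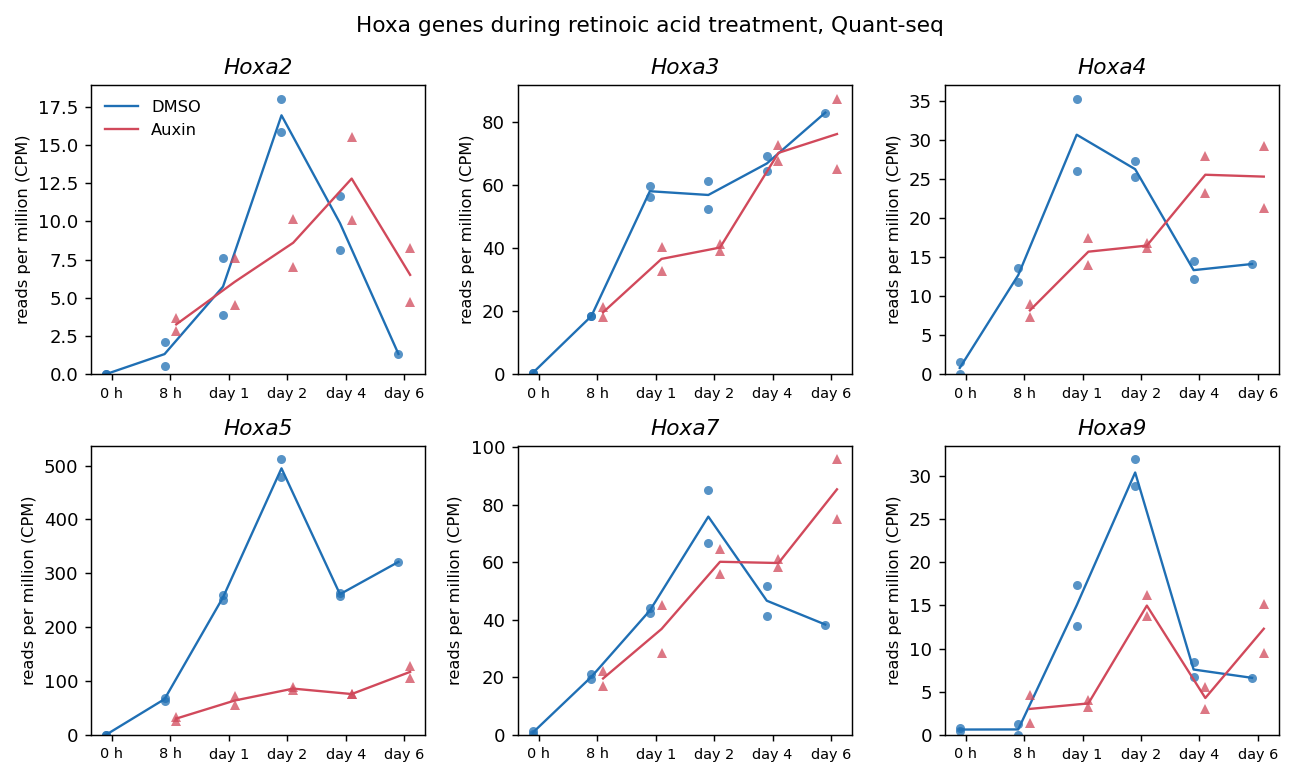
Level of each member in CPM (y axis, linear, separate scale for each gene) against time of RA (x axis); circles are single DMSO libraries, triangles single auxin libraries, and lines join the group means. Hoxa5 separates the treatments at every shared time, with 478 and 511 CPM in DMSO and 83.3 and 88.5 CPM in auxin at day 2. For Hoxa7 the treatments overlap at 8 h, and at day 6 the DMSO library is at 38.3 CPM and the auxin libraries at 74.9 and 95.7 CPM.

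In DMSO, 5 of the 6 genes were called higher at 8 h of RA and all 6 from day 1, with Hoxa9, the most 5′ member, not called at 8 h. The 8 h call of Hoxa2, on 1 and 5 reads, was lost in DESeq2 (adjusted p = 0.0723), without DMSO 0 h replicate 1 (0.137) or replicate 2 (0.175), and without DMSO 8 h replicate 2 (0.357). Over all 11415 genes tested, 3.5% passed the same test upwards at 8 h, 16% at day 1, 16.2% at day 2 and 19.9% at day 4. With 0 to 4 reads over both 0 h libraries, the members passed the filter on low counts only through the RA groups, so the count of those called has no weight of its own against these shares. A gene was called changed when edgeR's quasi-likelihood test, scaled by trimmed means of M values (TMM), gave it an adjusted p below 0.05 and its log2 fold change lay above 1 or below −1. In bulk RNA such as this, fewer cells that express a gene and less RNA per cell cannot be told apart.

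Hoxa3, the 3′ gene of thymus and parathyroid development, had 18.3 and 18.5 CPM at 8 h, 59.7 and 56.2 at day 1, 61.3 and 52.2 at day 2, 64.4 and 69.0 at day 4 and 82.8 in the single library of day 6. Most of its level was reached within 1 day, and the day 4 and day 6 libraries lay above those of days 1 and 2. Hoxa4 had 13.6 and 11.8 CPM at 8 h, 26.0 and 35.3 at day 1, 27.3 and 25.2 at day 2, 12.2 and 14.5 at day 4 and 14.1 at day 6. Its libraries of day 4 lay below all those of days 1 and 2.

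Hoxa5, the middle gene of the cluster, had 69.0 and 63.8 CPM at 8 h, 251 and 260 at day 1, 478 and 511 at day 2, 264 and 258 at day 4 and 321 at day 6. It climbed steeply to day 2 and came back to about its day 1 level at day 4. Hoxa7 had 19.3 and 20.99 CPM at 8 h, 42.3 and 44.1 at day 1, 84.98 and 66.7 at day 2, 41.5 and 51.8 at day 4 and 38.3 at day 6. The same rise to day 2 and partial return was seen, with libraries of day 2 that differed more from each other.

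The genes at the 2 ends of the set had the fewest reads. Hoxa2, the hindbrain gene, had 1 and 5 reads at 8 h, 14 and 7 at day 1, 35 and 34 at day 2, 18 and 25 at day 4 and 3 at day 6. Hoxa9 had 0 and 3 reads at 8 h, no more than before RA, then 17.4 and 12.7 CPM at day 1, 31.9 and 28.9 at day 2, 6.76 and 8.39 at day 4 and 6.61 at day 6. Hoxa9 was thus both late and short-lived in DMSO, and its day 4 libraries lay below those of day 1.

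Sizes of induction were read as ratios of pooled CPM to 0 h with exact 95% intervals, which cover counting error only, since reads without molecular identifiers are not independent molecules. At day 2 in DMSO the ratio was 2368 for Hoxa5 (425 to 93572), 135 for Hoxa3 (36.9 to 1121), 90.0 for Hoxa7 (34.8 to 332), 48.3 for Hoxa9 (16.2 to 237) and 31.3 for Hoxa4 (11.9 to 117). Hoxa2 was at least 26.9-fold higher than the level that 3 counts over the 0 h group would give. Leaving out 1 library moved the edgeR log2 change from 0 h at this time widely. It ran from 9.86 to 12.9 for Hoxa5, from 3.95 to 8.69 for Hoxa4 and from 5.87 to 7.15 for Hoxa7. The other members moved less. Only the interval of Hoxa5 lay wholly above that of another member, those of Hoxa4, Hoxa7 and Hoxa9, and the intervals of the others overlapped. All 4 reads of Hoxa4 at 0 h were in replicate 2. Its place as the smallest ratio with an interval, and its separation from Hoxa5, therefore depend on that library. With Hoxa2 at its bound, the median over the 6 genes, given as a description, was 5.44 on the log2 scale at day 1, 6.04 at day 2 and 4.89 at day 4.

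The order of induction was described by the level at each time as a percentage of the gene's own highest DMSO mean. At 8 h Hoxa4 had reached 41.3%, Hoxa7 26.6%, Hoxa3 22.2%, Hoxa5 13.4%, Hoxa2 7.74% and Hoxa9 2.07%. This order did not follow the order on the chromosome: Hoxa2, the most 3′ member, stood next to last. Taking the most extreme pairs of libraries, the ranges were 33.3% to 52.2% for Hoxa4, 22.7% to 31.5% for Hoxa7, 22.1% to 22.3% for Hoxa3, 12.5% to 14.4% for Hoxa5, 2.90% to 13.2% for Hoxa2 and 0% to 4.36% for Hoxa9. Neighbours whose ranges overlapped were Hoxa5 with Hoxa2 and Hoxa2 with Hoxa9. Hoxa7 and Hoxa3 were close, and the highest level of Hoxa3 is that of the single day 6 library, so its range leaves out the spread of that group.

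At day 1 Hoxa4 was at its highest mean, Hoxa3 stood at 69.9% of its own, Hoxa7 at 57.0%, Hoxa5 at 51.6%, Hoxa9 at 49.4% and Hoxa2 at 33.8%. Hoxa2, Hoxa5, Hoxa7 and Hoxa9 were all highest at day 2. The ranges of Hoxa7 (49.8% to 66.1%), Hoxa5 (49.0% to 54.3%) and Hoxa9 (39.7% to 60.1%) overlapped, so no order among these 3 could be read at day 1. The order at 8 h and day 1 was the same with reads that map to 1 place only and with the most read interval of each gene alone.

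**Figure D2:**
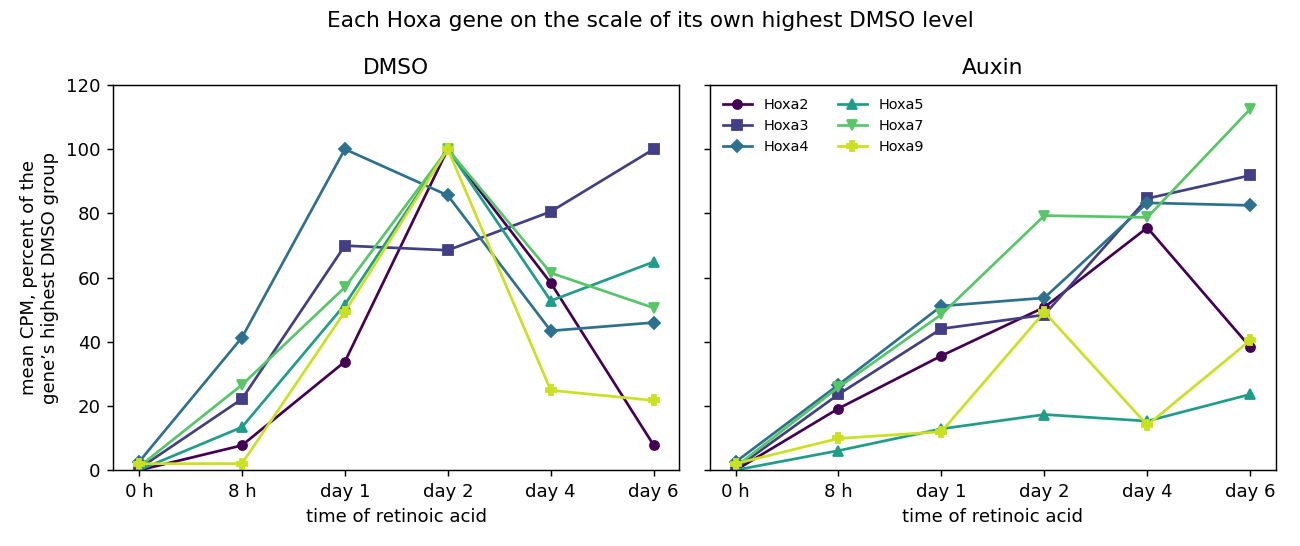
Group mean of each member as a percentage of its own highest DMSO mean (y axis) against time of RA (x axis), in DMSO and in auxin. At 8 h in DMSO Hoxa4 is at 41.3% and Hoxa9 at 2.07%, and in auxin Hoxa5 stays at or below 23.6% at all times.

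Tests between neighbouring times showed where each gene moved. From 8 h to day 1 in DMSO, 5 of 6 genes rose (9.29% of all genes did), by a log2 fold change of 4.21 ± 0.61 (SE) for Hoxa9, 1.89 ± 0.64 for Hoxa2, 1.83 ± 0.14 for Hoxa5, 1.54 ± 0.19 for Hoxa3 and 1.16 ± 0.29 for Hoxa4. Leaving out 1 library moved the rise of Hoxa9 between 3.48 and 7.99 and that of Hoxa2 between 1.38 and 3.30. Hoxa7, at 0.98 ± 0.24, passed the p threshold (edgeR adjusted p = 0.00194) and not the fold, and was called in 7 of 9 alternatives. From day 1 to day 2 Hoxa2 passed both thresholds (1.51 ± 0.41; 5.05% of all genes rose), and DESeq2 called none. Hoxa5 at 0.92 ± 0.12 (edgeR adjusted p = 2.47e-06), Hoxa9 at 0.98 ± 0.31 (0.0255) and Hoxa7 at 0.77 ± 0.20 (0.00648) passed the p threshold and not the fold. From day 2 to day 4 Hoxa9 fell by 2.07 and Hoxa4 by 1.05 on the log2 scale (4.7% of all genes fell), with Hoxa5 at −0.99 ± 0.12 (called in 5 of 9 alternatives), Hoxa2 at −0.84 ± 0.35, Hoxa7 at −0.77 ± 0.19 and Hoxa3 at 0.16 ± 0.16. The first rise of Hoxa2 lost its call in DESeq2 (adjusted p = 0.0655), without DMSO 8 h replicate 1 (0.149) and without DMSO day 1 replicate 1 (0.223), and its second without DMSO day 1 replicate 2 (0.164) and without DMSO day 2 replicate 1 (0.0505). The fall of Hoxa4 lost its call without DMSO day 4 replicate 1 (0.0678) and, through the fold, with no TMM scaling (−0.98).

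Auxin-treated cells also turned these 6 genes on, with Hoxa5 lower than in DMSO at every time and Hoxa9 called lower at days 1 and 2. Against the same 0 h libraries, 5 of 6 genes were higher at 8 h in auxin (3.81% of all genes were) and all 6 at day 1 (14.4%), day 2 (18.2%), day 4 (22.8%) and day 6 (23.2%). Here too the members passed the filter only through the RA groups, and their count has no weight of its own. Hoxa9 was again the gene not called at 8 h, with 10 and 3 reads (edgeR adjusted p = 0.0615), and was called there with no filter (0.0497) and without Auxin 8 h replicate 2 (0.0285). Its calls at days 1 and 4 were lost without DMSO 0 h replicate 1 (0.0771 and 0.0870) and without replicate 1 of the auxin group (0.0918 and 0.145). Both series share the 0 h libraries, so their changes from 0 h are not independent of each other.

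Hoxa5 in auxin had 34.1 and 26.4 CPM at 8 h, 72.2 and 55.3 at day 1, 83.3 and 88.5 at day 2, 75.1 and 76.5 at day 4 and 106 and 128 at day 6. Every one of these libraries lay below the DMSO libraries of the same time, and the auxin libraries of day 6 were the highest of the auxin series. Its ratio to 0 h was 410 at day 2 (73.0 to 16230). The 0 h group held 1 read of Hoxa5, and leaving out 1 library moved the edgeR log2 change between 7.23 and 10.3. Auxin at 8 h to day 1 was the only step in which Hoxa5 passed the test in these cells, at 1.10 ± 0.18 on the log2 scale (7.93% of all genes rose), and it fell under the fold threshold without Auxin 8 h replicate 2 (0.92) and without Auxin day 1 replicate 1 (0.95).

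Hoxa3 in auxin had 18.0 and 21.2 CPM at 8 h, 40.2 and 32.8 at day 1, 39.0 and 41.2 at day 2, 72.6 and 67.6 at day 4 and 87.3 and 64.9 at day 6. The auxin libraries of days 1 and 2 lay below those of DMSO, and at day 4 the groups overlapped. Hoxa4 had 7.37 and 8.95 CPM at 8 h, 13.98 and 17.4 at day 1, 16.8 and 16.1 at day 2, 27.9 and 23.1 at day 4 and 21.3 and 29.3 at day 6. The Hoxa4 libraries in auxin lay below DMSO to day 2 and above it at day 4, which put day 4 in auxin at about the level of days 1 and 2 in DMSO.

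Hoxa7 in auxin had 17.04 and 22.1 CPM at 8 h, 28.5 and 45.0 at day 1, 55.7 and 64.6 at day 2, 58.3 and 61.1 at day 4 and 74.9 and 95.7 at day 6. Its mean at day 6 was 112.5% of the highest DMSO mean, and both day 6 libraries lay above the single DMSO library of that day (38.3 CPM), where no test was made. At day 2 both lay below the DMSO libraries. Hoxa2 had 3.69 and 2.83 CPM at 8 h, 7.57 and 4.50 at day 1, 7.03 and 10.2 at day 2, 15.5 and 10.1 at day 4 and 8.25 and 4.75 at day 6, and its highest auxin mean came at day 4, not day 2. Hoxa9 had 4.61 and 1.41 CPM at 8 h, 4.08 and 3.22 at day 1, 16.2 and 13.7 at day 2, 5.58 and 2.97 at day 4 and 15.1 and 9.49 at day 6. Hoxa9 rose from day 1 to day 2 (1.85 ± 0.47, 6.71% of all genes rose), fell by 1.97 to day 4 (2.86% fell) and rose to day 6 (1.52 ± 0.48, edgeR adjusted p = 0.0434, 2% rose). The last of these calls was lost in DESeq2 (adjusted p = 0.154) and without Auxin day 4 replicate 1 (0.0742), Auxin day 4 replicate 2 (0.274) or Auxin day 6 replicate 1 (0.164), and the first without Auxin day 1 replicate 2 (0.0619).

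The direct comparison of auxin with DMSO at the same time asked whether the level of these genes under RA differed with auxin. An auxin group without RA was not analysed in this series, so a difference in level is tested and not one in response. All cells of the series carry the degron, so auxin itself and DPY30 depletion cannot be told apart. Hoxa5 was lower in auxin at all 4 times with a test, Hoxa9 at days 1 and 2, and the other 4 genes at none. No member was higher. Of all genes tested, 0.14% were lower at 8 h, 1.38% at day 1, 1.88% at day 2 and 2.59% at day 4, and 0.0175%, 1.02%, 2.93% and 4.66% were higher.

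For Hoxa5 the log2 difference between auxin and DMSO was −1.21 ± 0.17 at 8 h (edgeR adjusted p = 0.000228), −1.94 ± 0.14 at day 1 (1.74e-09), −2.61 ± 0.13 at day 2 (2.8e-13) and −1.96 ± 0.14 at day 4 (7.16e-11). Group means were 66.4 ± 3.65 against 30.2 ± 5.46 CPM at 8 h (DMSO against auxin, SD, n = 2 each; tests by edgeR) and 495 ± 23.3 against 85.9 ± 3.64 CPM at day 2. Over the 4 times the mean difference was −1.93 ± 0.07 (edgeR adjusted p = 1.85e-16; 0.85% of all genes were lower), lower in auxin at 4 of 4 times. The Hoxa5 calls held in 9 of 9 alternatives at each time. At day 6, where DMSO has 1 library, the values were 321 CPM in DMSO and 106 and 128 in auxin, with no test.

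Hoxa9 differed by −1.97 ± 0.46 at day 1 (edgeR adjusted p = 0.00909) and −1.09 ± 0.31 at day 2 (0.0192), and by −0.997 ± 0.49 at day 4 (0.17) and 1.95 ± 0.83 at 8 h (0.373), where DMSO had 0 and 3 reads. These calls rest on single libraries. At day 1 DESeq2 gave it no adjusted p, and in edgeR the value was 0.0652 without Auxin day 1 replicate 1, 0.0916 without Auxin day 1 replicate 2 and 0.101 without DMSO day 1 replicate 1, and at day 2 it ranged from 0.0701 to 0.152 over the 4 fits that leave out 1 library and was 0.195 in DESeq2. Averaged over the 4 times Hoxa9 was not called (−0.53 ± 0.34, adjusted p = 0.288).

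Hoxa3 was between the clear and the absent differences. It passed the p threshold without the fold at day 1 (−0.61 ± 0.18, edgeR adjusted p = 0.0346) and day 2 (−0.58 ± 0.17, 0.0248) and over the 4 times (−0.32 ± 0.09, 0.0122), with 0.00 ± 0.22 at 8 h and −0.11 ± 0.16 at day 4. Hoxa4 was at −0.71 ± 0.35 at 8 h, −0.92 ± 0.29 at day 1 (0.0532), −0.75 ± 0.29 at day 2 (0.0853) and 0.76 ± 0.30 at day 4 (0.0752), none of which passed. Hoxa2 was at 1.11 ± 0.70, 0.14 ± 0.50, −1.06 ± 0.38 (0.0653) and 0.19 ± 0.38 at 8 h and days 1, 2 and 4. It passed at day 2 with no filter on low counts (0.0386) and with only the groups compared in the fit (0.0237). Hoxa7, next to Hoxa5 in the set, was at −0.13 ± 0.26, −0.19 ± 0.22, −0.41 ± 0.19 and 0.18 ± 0.20, none of which passed.

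**Figure D3:**
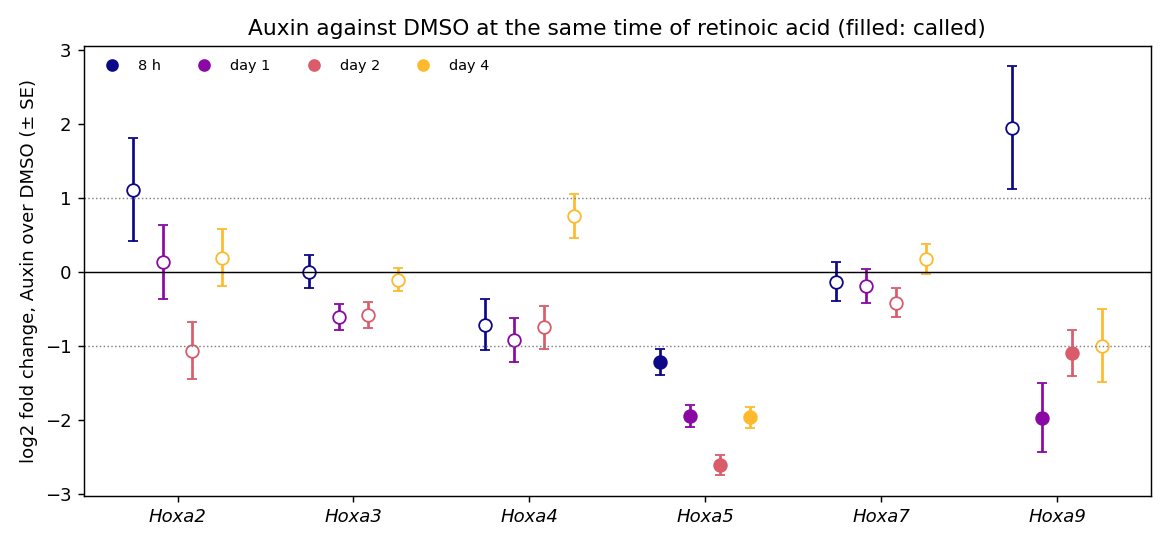
Log2 difference between auxin and DMSO for each member (y axis, bars are SE from the edgeR fit) at each time of RA (x axis); filled points passed the test. Hoxa5 lies between −2.61 and −1.21 at all 4 times, Hoxa9 is filled at days 1 and 2, and Hoxa4 goes from −0.92 at day 1 to 0.76 at day 4.

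Whether the auxin effect itself changed between 8 h and day 4 was tested as an interaction. In edgeR 0 of 6 genes were called (1.59% of all genes in the downward and 1.96% in the upward direction), 3 of 6 had an unadjusted p under 0.05, and DESeq2 also called 0. The differences were −0.75 ± 0.23 for Hoxa5 (adjusted p = 0.048, under the fold threshold), 1.47 ± 0.46 for Hoxa4 (0.0530) and −2.95 ± 0.96 for Hoxa9 (0.0669). Hoxa4 was called upwards without TMM scaling (0.0401), with no filter (0.0382) and with only the 4 groups compared in the fit (0.0140). Hoxa9 was called downwards with no filter (0.0346), without Auxin 8 h replicate 2 (0.0336) and without DMSO 8 h replicate 2 (0.0424).

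The treatments differed more for Hoxa5 than for the sum of the other members. This was described, after the values had been seen, by the log2 ratio of each gene's reads to the summed reads of the other members, leaving Hoxa5 out of every sum. For Hoxa5 the mean ratio was 0.80 in DMSO and −0.84 in auxin, a difference of −1.64, with every auxin library lower at 4 of 4 times. Leaving out 1 library moved the difference between −1.70 and −1.57. The differences of the others were 0.46 for Hoxa2, −0.05 for Hoxa3, −0.14 for Hoxa4, 0.25 for Hoxa7 and −0.20 for Hoxa9. In none of these 5 genes did the groups separate in 1 direction at all 4 times. For Hoxa9 every auxin library was lower at 3 of the 4 times, days 1, 2 and 4. At 8 h, where DMSO had 0 and 3 reads, every auxin library was higher.

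**Figure D4:**
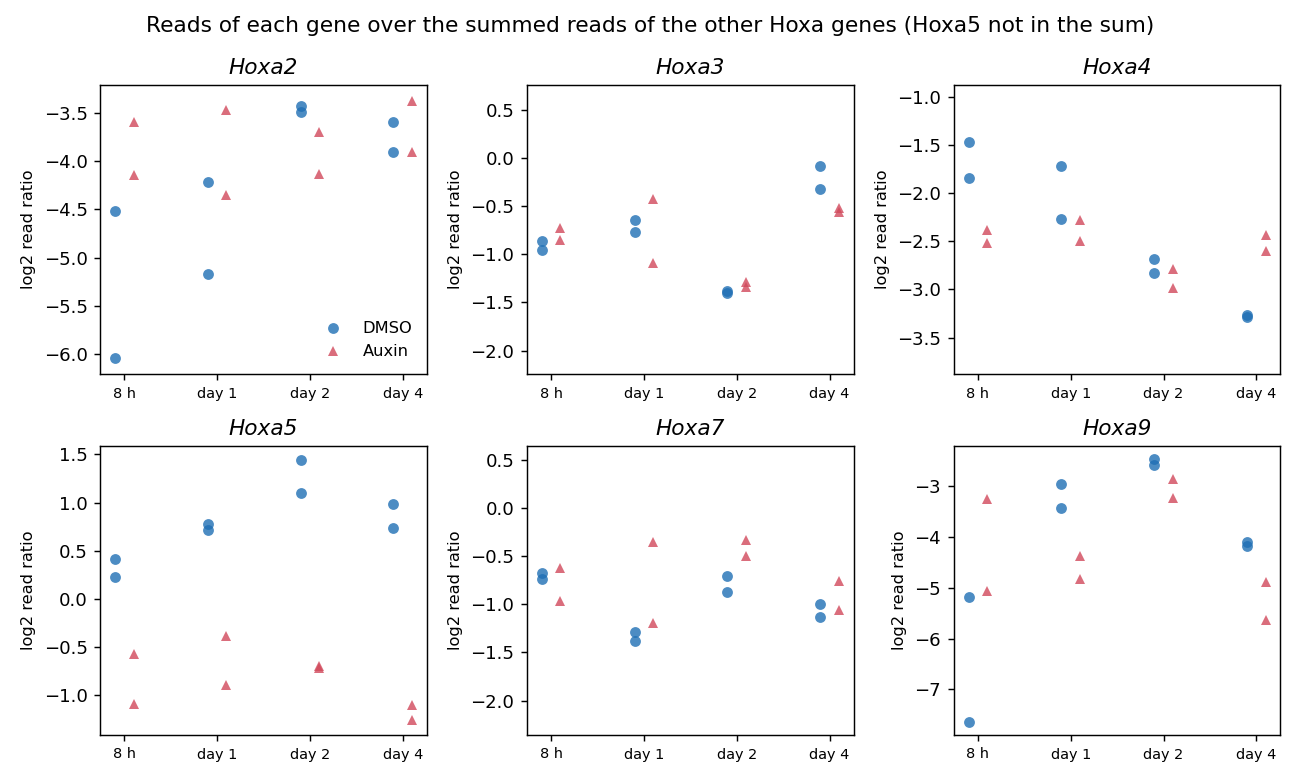
Log2 ratio of each member's reads to the summed reads of the other members, Hoxa5 left out of the sums (y axis), for each library against time of RA (x axis). The auxin libraries of Hoxa5 all lie below its DMSO libraries of the same time, with means of −0.84 and 0.80.

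A neighbour in the cluster was read at the same times. Hoxa10, the neighbour of Hoxa9 on its 5′ side, had 4 reads in DMSO and 7 in auxin over the libraries of 8 h, where the log2 difference was 0.69 ± 0.92 and not called. It had 25 and 15 reads in DMSO and 0 and 0 in auxin at day 1, and differed by −2.50 ± 0.52 at day 2 (edgeR adjusted p = 0.00175) and −2.23 ± 0.55 at day 4 (0.00563). Hoxa10 reached the filter on low counts only in DMSO groups, so its calls have no weight of their own. None of the 4 flanking genes tested was called at any of the 4 times.

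Other Hox clusters were compared through lists of their genes. In DMSO, 7, 10, 10 and 10 of 10 Hoxb genes rose against 0 h at 8 h and days 1, 2 and 4, beside 3.5%, 16%, 16.2% and 19.9% of all genes. In auxin against DMSO 0, 2, 7 and 2 of 10 Hoxb genes were lower at those times, with Hoxb4 at −1.30 ± 0.20 and Hoxb9 at −1.49 ± 0.25 at day 2 (edgeR adjusted p of 6.2e-05 and 0.00016), and 0, 1, 5 and 3 of 7 tested Hoxc genes were lower, beside 0.14%, 1.38%, 1.88% and 2.59% of all genes. Hoxb1, the most 3′ Hoxb gene, was the exception, higher in auxin at day 1 (1.22 ± 0.17) and day 4 (1.51 ± 0.11). The median difference at day 2 was −0.90 over the 6 Hoxa genes, −1.41 over the Hoxb genes and −2.04 over the Hoxc genes, beside 0.04 over all genes tested. The only tested Hoxd gene was not called. A Hox gene with few reads at 0 h could pass the filter on low counts only through RA groups in which it was high. The counts of called Hoxb and Hoxc genes therefore have no weight of their own against the shares of all genes. Retinoid receptor and metabolism genes rose in DMSO in 6, 7, 7 and 10 of 17, and Cdx and cofactor genes, which act with Hox proteins, in 2, 7, 8 and 6 of 11, at the same times and beside the same 3.5%, 16%, 16.2% and 19.9% of all genes. At day 2, 0 of 17 and 0 of 11 of these were lower in auxin, and 2 of each list were higher, beside 1.88% of all genes lower and 2.93% higher. Of the H3K4 methyltransferase subunits 1 of 11 was higher and 0 were lower, and of the Polycomb subunits 0 of 14 were called.

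Markers of other cell types moved over the same days. Of 14 pluripotency markers 4, 8, 9 and 10 fell in DMSO at 8 h and days 1, 2 and 4, beside 2.93%, 13.4%, 10.1% and 10.5% of all genes. All 11 primitive endoderm markers rose by day 2 (16.2% of all genes), and their summed level was 1459 to 1528 CPM in DMSO and 1105 to 1118 in auxin at day 2, and 7639 to 7747 in DMSO and 2418 to 2480 in auxin at day 4, where 9 of 11 were lower in auxin (2.59% of all genes). Neural markers summed to 110 to 123 CPM in DMSO and 133 to 146 in auxin at day 2, beside 110 to 118 at 0 h. Trophectoderm markers summed to 298 to 334 CPM in DMSO and 217 to 242 in auxin at day 2, and mesoderm markers to 22.1 to 25.2 and 10.8 to 17.9. Their part in the Hoxa5 difference was not tested.

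The genes whose pattern over the 11 groups was most like each member, by Pearson correlation of log2 group means among 10147 candidates, were taken 3 to a member. Among the 3 nearest to each were Hoxb4 (0.97) and Cyp26a1 (0.97) for Hoxa3, Dnajb3 (0.97), Hoxb4 (0.95) and Stra8 (0.94) for Hoxa4, Hoxb4 (0.96) and Lmo4 (0.94) for Hoxa5, and Hoxb3 (0.96) and Hoxb4 (0.96) for Hoxa7. Hoxa2 and Hoxa9, the members with the fewest reads, were nearest to Cap2 (0.95), Zfp612 (0.92) and Abcb6 (0.92), and to Cgref1 (0.94), Tmem38a (0.93) and Dctn2 (0.93). Among the members the correlations ran from 0.68 (Hoxa2 with Hoxa5) to 0.96 (Hoxa3 with Hoxa7). All these values share the same libraries and are given as a description.

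In undifferentiated cells the 3 SLAM-seq lines differed in how much of the cluster could be read, and for Hoxa5 the libraries of the double knockout stood above those of the other lines. In RBBP5–FKBP, Hoxa2, Hoxa4 and Hoxa9 had 0 reads in 12 of 12 libraries, which allows up to 0.114 CPM each over the pooled libraries, Hoxa5 had 1 read and Hoxa3 5 reads in all, and Hoxa7 0 to 5 reads a library (16 in all, 0.606 CPM). In DPY30–mAID, Hoxa2 had 0 reads in 12 libraries (up to 0.106 CPM), Hoxa9 1 read, Hoxa3 4 and Hoxa4 6 in all, Hoxa5 0 to 7 a library (16 in all, 0.567 CPM) and Hoxa7 0 to 10 (43 in all, 1.52 CPM). For 5 of the 6 genes at least 6 of the 12 libraries of either line had no read.

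In the double knockout, Hoxa5 had 22 to 44 reads in each of the 12 libraries (386 in all, 4.72 CPM), Hoxa3 11 to 27 (209, 2.56 CPM), Hoxa4 6 to 25 (182, 2.23 CPM), Hoxa7 5 to 17 (144, 1.76 CPM), Hoxa2 0 to 9 (47, 0.575 CPM) and Hoxa9 0 to 3 (11, 0.134 CPM). The lowest double knockout library for Hoxa5, at 3.30 CPM, was above the highest DPY30–mAID library, at 3.19 CPM. Even so, these levels are far under those after RA, where Hoxa5 reached 495 CPM. For the other 5 genes the libraries of the double knockout and DPY30–mAID were not separate, the lowest of the former being at 1.63 CPM for Hoxa3, 0.891 for Hoxa4, 0.688 for Hoxa7 and 0 for Hoxa2 and Hoxa9, and the highest of the latter at 1.94, 1.45, 4.56, 0 and 0.497 CPM. These libraries were also the most deeply sequenced, and line and library preparation cannot be told apart.

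**Figure D5:**
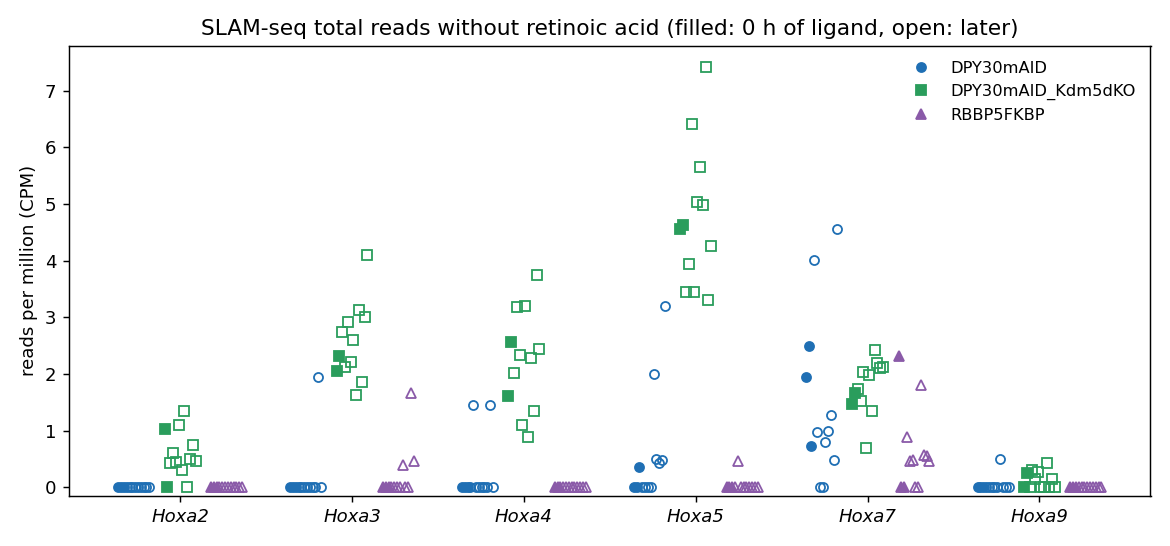
Level of each member in CPM (y axis) in single SLAM-seq libraries of the 3 lines (x axis); filled points are 0 h and open points later times after the degron ligand. The double knockout libraries of Hoxa5 lie at 3.30 CPM or above and the DPY30–mAID libraries at 3.19 CPM or below, whereas for the other members the lowest double knockout library does not lie above the highest DPY30–mAID library.

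At 0 h alone, before any ligand, Hoxa5 had 31 and 36 reads in the double knockout and 0, 0 and 1 in DPY30–mAID, a ratio of pooled CPM of 35.0 (6.07 to 1402). Hoxa3 had 14 and 18 reads against 0 in each of the 3 libraries, at least 5.57-fold higher, and Hoxa4 11 and 20 against 0 in each, at least 5.39-fold higher. Hoxa7 had 10 and 13 reads against 4, 7 and 2, a ratio of 0.923 (0.449 to 1.98). In edgeR, Hoxa3, Hoxa4 and Hoxa5 were called higher (adjusted p of 0.0348, 0.0379 and 0.0161; 8.31% of 11011 genes were) and Hoxa7 was not (log2 difference −0.16 ± 1.25, 0.941). The 4 genes tested passed the filter on low counts only through the double knockout, so the count of those called has no weight of its own. The calls were fragile: DESeq2 kept 1, that of Hoxa5, and leaving out 1 library kept 0 or 1. A fit blocked on replicate number kept 0 (adjusted p of 0.0583 for Hoxa5, 0.194 for Hoxa3 and 0.205 for Hoxa4). The 1 kept when a library was left out was Hoxa5 again, without DPY30–mAID 0 h replicate 3, while without replicate 1 or 2 of DPY30–mAID its adjusted p was 0.0512 and 0.0533 and without replicate 1 or 2 of the double knockout 0.160 and 0.162. Hoxa3 and Hoxa4 lost their calls without any 1 of the 5 libraries, with adjusted p from 0.0708 to 0.284.

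In the double knockout no change of these genes was detectable within 48 h of auxin. Of the 4 members tested in total reads, edgeR called 0 at 2, 4, 8, 24 or 48 h of auxin (3.07% of 11394 genes were called at some time), 0 had an unadjusted p under 0.05, and DESeq2 called 0. Hoxa5 was at 0.09 ± 0.32, 0.40 ± 0.32, −0.31 ± 0.34, −0.37 ± 0.34 and 0.13 ± 0.32 on the log2 scale at these times. Standard errors of this size leave changes of moderate size undetected, and in the DPY30–mAID and RBBP5–FKBP lines no member had enough reads to be tested. Newly made RNA was rarer still, with 13 T>C reads of 386 for Hoxa5 and 23 of 209 for Hoxa3 over the 12 double knockout libraries, and no member could be tested there.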

How the data were processed

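Quant-seq and SLAM-seq 3′ end libraries of mouse embryonic stem cell lines were analysed from the read counts deposited by the authors, 1 table per library with a count of all reads and of T>C reads for each of 46420 annotated 3′ intervals (58 libraries). Per the file headers the tables came from slamdunk 0.3.4. The intervals match GENCODE vM14 on GRCm38. For Quant-seq the study's methods give Trim Galore, HISAT2 2.2.1 on mm10 and featureCounts, whereas the headers of the deposited Quant-seq tables name slamdunk. The filter of the study's methods on the number of conversions per read is not applied in these counts. Intervals were summed per gene (20177 genes). The 2 identical DMSO day 6 libraries entered once.

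Counts were fitted with edgeR 4.0.16 (R 4.3.3, TMM scaling, quasi-likelihood test, Benjamini-Hochberg over all genes tested) on genes whose mean reached 10 reads in 1 group or more, in 1 fit of all Quant-seq groups, 1 fit per SLAM-seq line and 1 fit of the 0 h SLAM-seq libraries. Calls needed a log2 fold change outside −1 to 1 with an adjusted p below 0.05. T>C reads were scaled by total reads. CPM are reads scaled to 1000000 counted reads without TMM. On simulated counts for auxin against DMSO at day 1 (11415 genes), changes of log2 1.5 were recovered in 74% of the altered genes and changes of log2 2 in 89%. For the double knockout against DPY30–mAID at 0 h these shares were 67% and 69%. The altered genes were drawn at random from all genes tested, so the shares need not hold for members with few reads. All 6 members are named, other genes by membership of lists or by the 3 highest correlations (prior count 2, highest group mean of at least 10 CPM). One gene that these rules name is not reported here. The members and lists were chosen with earlier results of these data known, and the ratio among members (0.5 added to each count) after their values were seen. Alternatives were DESeq2 1.42.0, no TMM, no filter, only the groups compared, a replicate block, T>C scaling factors, 1 interval per gene, uniquely mapped reads and leaving out each library.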

Additional observations from a re-analysis of the deposited data

Results flagged for a closer look

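Hoxa5 and Hoxa9 were singled out because their level at the same time of RA differed between auxin and DMSO by a test of the difference itself. For Hoxa5 the log2 difference was −1.21 at 8 h, −1.94 at day 1, −2.61 at day 2, −1.96 at day 4 and −1.93 over the 4 times, with each auxin library below each DMSO library of its time. The test of a change in that difference between 8 h and day 4 gave −0.75 (edgeR adjusted p = 0.048, range over alternatives 0.0137 to 0.343), which is under the fold threshold and was called in 0 of 13 alternatives. For Hoxa9 the difference was −1.97 at day 1 and −1.09 at day 2, and both calls were lost when single libraries were left out. Groups of 1 to 3 libraries were too small for a search for outlying libraries.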

How the results depend on the processing

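The calls of Hoxa5 between auxin and DMSO held in every alternative run, 9 at each time and 21 for the mean over times. The cause of the changes that follow was not tested. Members lower in auxin went from 2 to 1 at days 1 and 2 in DESeq2 and were 1 to 2 and 1 when a library was left out. At day 2 Hoxa2 was gained as lower with no filter and with only the groups compared. Members called in the change of the auxin effect between 8 h and day 4 went from 0 to 1 upwards with no TMM, no filter or only the groups compared, and from 0 to 1 downwards with no filter (0 to 1 with a library left out). For the steps, DMSO day 1 to day 2 went from 1 to 0 in DESeq2 and 2 with no TMM (0 to 1 with a library left out), DMSO day 2 to day 4 from 2 to 1 with no TMM and 3 in DESeq2 (2 to 3), DMSO 8 h to day 1 gave 4 to 6 with a library left out, auxin 8 h to day 1 from 1 to 2 in DESeq2 (1 to 2), auxin day 1 to day 2 gave 0 to 1, and auxin day 4 to day 6 went from 1 to 0 in DESeq2 and with only the groups compared (0 to 1). The count at 0 h in the double knockout went from 3 to 1 in DESeq2, and 0 to 1 with a library left out. No called difference changed sign.

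Differences between groups that changed sign, none of them called, were those of Hoxa3 at 8 h (−0.013 in DESeq2, −0.0051 with no filter, −0.11 to 0.11 with a library left out) and at day 4 (0.071 with no TMM). With a library left out they were also Hoxa7 at 8 h (−0.32 to 0.037) and day 1 (−0.58 to 0.077), Hoxa2 at day 1 (−0.33 to 0.67), day 4 (−0.15 to 0.48) and over the times (−0.071 to 0.41), Hoxa9 over the times (−0.80 to 0.38) and in DMSO at 8 h against 0 h (−3.51 to 1.01), Hoxa7 between lines (−0.54 to 0.23), the change of the auxin effect on Hoxa3 (−0.22 to 0.0057), and the ratios among members of Hoxa3 (−0.13 to 0.033) and Hoxa9 (−0.51 to 0.10). Steps that changed sign in some alternative were that of Hoxa3 in DMSO from day 1 to day 2, and in auxin those of Hoxa9 from 8 h to day 1, of Hoxa2, Hoxa3 and Hoxa4 from day 1 to day 2 and of Hoxa3 and Hoxa4 from day 4 to day 6. Calls against 0 h that were lost were those of Hoxa2 in DMSO at 8 h (DESeq2 adjusted p = 0.0723, and without either 0 h library or 8 h replicate 2) and Hoxa9 in auxin at days 1 and 4 (without DMSO 0 h replicate 1 or without replicate 1 of the auxin group). Hoxa9 gained a call in auxin at 8 h with no filter and without Auxin 8 h replicate 2. DESeq2 gave Hoxa2 no adjusted p there, which took that count from 5 to 4.

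Replicate numbers did not pair the Quant-seq samples: correlations of same-numbered deviations ran from −0.27 to 0.41. Blocking on replicate number, the count at 0 h in the double knockout went from 3 to 0, and no other count of members called changed by more than 1.5 times. Few reads limit Hoxa2, Hoxa9 and all members in undifferentiated cells.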

Other observations

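In the DPY30–mAID SLAM-seq library of 8 h replicate 3, all 10 reads of Hoxa7 carried T>C conversions, while the other 11 libraries of that line held 0 T>C reads among the remaining Hoxa7 reads. The library was chosen after its values were seen, and no test was made.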
